A study of Homo sapiens with 6 samples.

Results

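The mitophagy receptors BNIP3L, FUNDC1 and BNIP3 and 5 of their partners (PINK1, OPTN, SQSTM1, MAP1LC3B and GABARAPL1) were followed in SH-SY5Y cells after inhibition of miR-137. BNIP3L and FUNDC1 are reported targets of this microRNA. The rule that chose the 8 genes used no measured value, but the genes were chosen with earlier results of these data known. Every probe set annotated to exactly 1 of the 8 symbols was taken, which gave 26 probe sets of the 45278 with a single gene symbol. SH-SY5Y is an established human neuroblastoma line that serves as a model of neurons. Both groups held 3 arrays, numbered 1 to 3, of total RNA from these cells. Cells of the first group received 15 pM of an anti-miR against hsa-miR-137, and cells of the control group received Anti-miR Negative Control #1 at the stated 15 pM, both with Lipofectamine RNAiMAX 24 hours after seeding. RNA was taken 72 hours after transfection in both groups. The arrays gave no value for miR-137 used here, so how far it was inhibited was not measured. All samples came from 1 cell line, and the labels do not say whether arrays of a group stem from separate cultures. The p-values therefore reflect only how far these arrays differ, which can include technical spread.

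Mitophagy is the removal of mitochondria by autophagy, and it matters for neurons because they depend on mitochondria and are rarely replaced by division. In the receptor route, proteins of the outer mitochondrial membrane such as BNIP3L (also called NIX), BNIP3 and FUNDC1 bind directly to LC3 and GABARAP proteins on the growing autophagosome, and this route is best known from hypoxia. In the ubiquitin route, the kinase PINK1 gathers on damaged mitochondria and marks them with phosphorylated ubiquitin, and adaptors such as OPTN and SQSTM1 (p62) link that mark to the same LC3 and GABARAP proteins. A microRNA lowers its target mRNAs or their translation mainly by pairing of its bases 2 to 8, the seed, with sites in the mRNA. An inhibitor of the microRNA is used to relieve this repression.

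The sequences of miR-137 are shown because the seed is what defines a candidate target. In RefSeq (GRCh38.p14) the hairpin lies on the minus strand at chr1:98046070-98046171. The mature 3p strand, the one long known as miR-137, lies at chr1:98046091-98046113 and the 5p strand at chr1:98046127-98046149. The capitals mark the 3p strand in the hairpin and the seed in each mature strand.
MIR137 hairpin: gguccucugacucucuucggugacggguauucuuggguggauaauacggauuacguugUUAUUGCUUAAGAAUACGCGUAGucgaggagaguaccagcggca
hsa-miR-137-3p: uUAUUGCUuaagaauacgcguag
hsa-miR-137-5p: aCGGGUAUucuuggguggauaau
Among 2370 human mature microRNA names in the same table, hsa-miR-137-3p was the 1 with this seed. The 7 bases of an mRNA that pair with it read AGCAAUA. Which of the 8 mRNAs hold that site was not analysed here, since no transcript sequences were used.

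The values are log2 values per probe set after RMA, which corrects background, equalises the distributions of the arrays and combines the probes of each set. They show relative differences between arrays, so a change common to all transcripts would be lost. The 6 array medians lay between 6.40 and 6.44, and the RNA integrity numbers between 9.5 and 9.8. A gene was tested when at least 1 probe set had a mean over the 6 arrays of 5.70 or more, the 40th percentile of all probe sets, and its brightest probe set by that mean stood for the gene. All 8 genes and 24 of their 26 probe sets passed, within 12620 genes tested. Of the markers of noradrenergic neuroblastoma, all 11 used here passed, with levels from 8.28 (TH) to 14.5 (CHGA). Of the mesenchymal markers 5 of 8 passed, with levels from 4.74 (CD44) to 12.4 (TWIST1). Of the glial markers 3 of the 4 used here passed, with levels from 5.44 (MBP) to 7.86 (S100B). Of the blood markers 1 of 4 passed, with levels from 3.65 (LYZ) to 7.52 (HBB).

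None of the 8 genes passed the test of anti-miR-137 against control over all genes. In limma, 0 of 8 had an adjusted p under 0.05, where 0% of the 12620 genes did, and each of the 8 had an adjusted p of 1.00. At an unadjusted p under 0.05 there were also 0 of 8, where 2.65% of all genes were counted (334 of 12620). Of the 8 genes, 6 were lower by mean in anti-miR-137 than in control cells and 2 were higher, and 48.1% of all genes were lower. The median log2 difference was -0.033 over the 8 genes and 0.0033 over all genes. For bulk RNA such as this, a lower level in every cell and a smaller share of cells with the transcript cannot be told apart.

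**Figure D1:**
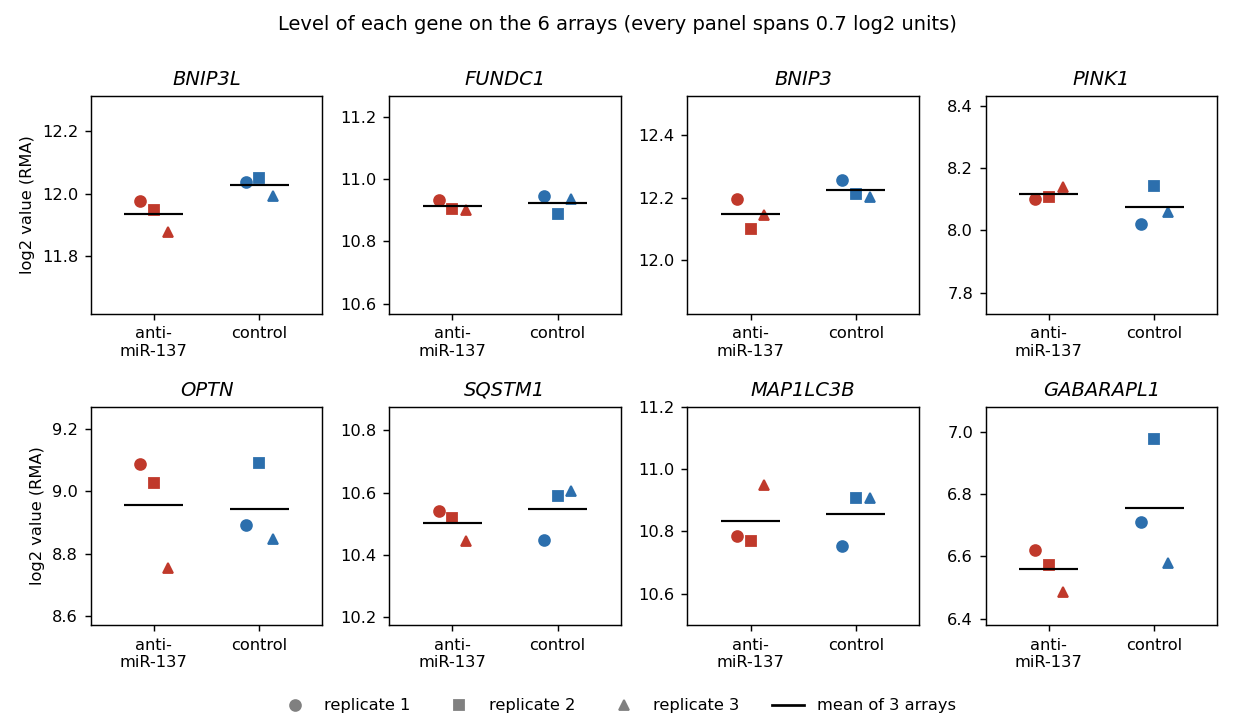
Log2 value (vertical axis, RMA) of each of the 8 genes on the 3 anti-miR-137 arrays (red) and the 3 control arrays (blue); the marker shape gives the replicate number and the black line the mean of 3 arrays. Every panel spans the same range. The anti-miR-137 arrays lie below all control arrays for BNIP3L and BNIP3, and the groups overlap for the other 6 genes.

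BNIP3L, the outer membrane receptor that clears mitochondria from maturing red cells, had slightly lower values in anti-miR-137 cells. Its main probe set (11757303_s_at) measured 11.98, 11.95 and 11.88 in anti-miR-137 replicates 1, 2 and 3 and 12.04, 12.05 and 11.99 in control replicates 1, 2 and 3. All 3 anti-miR-137 arrays were below all 3 control arrays. The means were 11.93 ± 0.050 and 12.03 ± 0.030 (SD, n = 3 each), a log2 difference of -0.094 with a standard error of 0.058 and a 95% confidence interval from -0.23 to 0.043 (adjusted p = 1.00, limma). As a ratio this was 0.937, with an interval from 0.853 to 1.03, so its upper end for an increase was 1.03-fold on this probe set. In the limma fit over all probe sets, upper ends for BNIP3L were higher than the 0.043 given here. They ran from 0.069 (11717008_a_at) to 0.12 (11745828_x_at) log2 units.

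The other probe sets of BNIP3L gave the same sign. All 6 had lower means in anti-miR-137 cells, from -0.13 (11717008_a_at) to -0.043 (11748909_a_at and 11753422_a_at). The last pair held the same 6 values and was counted as 1 measurement, so 5 distinct measurements were lower. Their groups did not overlap for 3 of the 5, where 8.01% of all probe sets had groups that did not overlap. The probe sets are annotated to the same gene, were measured in the same 6 RNA samples and are not replicates of the treatment. All carry a suffix by which the manufacturer marks probes shared between transcripts or prone to cross-hybridisation, so none of them is a plain single-transcript set.

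FUNDC1, the receptor whose binding to LC3 is switched by phosphorylation, was the most even of the 8 genes across the arrays by SD. Its single probe set (11731671_at) measured 10.93, 10.90 and 10.90 in anti-miR-137 replicates 1 to 3 and 10.95, 10.89 and 10.94 in control replicates 1 to 3. The groups overlapped: the lowest and the highest of the 6 values were both control arrays. The means were 10.91 ± 0.017 and 10.92 ± 0.031 (SD, n = 3 each), a log2 difference of -0.011 with an interval from -0.14 to 0.12 (adjusted p = 1.00, limma). As a ratio the interval ran from 0.908 to 1.08. The sign of this difference changed under other settings, which gave -0.034 to 0.0053.

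BNIP3, the close relative of BNIP3L and a textbook hypoxia-induced gene, measured 12.20, 12.10 and 12.14 in anti-miR-137 replicates 1 to 3 on its main probe set (11743084_s_at). The control arrays measured 12.25, 12.21 and 12.20. The anti-miR-137 arrays were again below all control arrays, though the gap between the groups was under 0.01 log2 units. The difference was -0.076 with a standard error of 0.058 and an interval from -0.21 to 0.059 (adjusted p = 1.00, limma). The second probe set of BNIP3 (11760104_at), which just passed the filter at a mean of 5.73, gave 0.081 with an interval from -0.19 to 0.36, and its groups overlapped. BNIP3L and BNIP3 were thus the 2 of 8 genes whose groups did not overlap, both lower in anti-miR-137 cells. Over all genes the groups did not overlap for 7.36%, and for 3.17% with the lower values in anti-miR-137 cells. With 3 arrays against 3, no two-sided exact permutation test of a single gene can reach a p under 0.1.

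PINK1, the kinase that starts the ubiquitin route, had overlapping groups. On the main probe set (11726996_at) the anti-miR-137 arrays ranged from 8.10 to 8.14 and the control arrays from 8.02 to 8.14. The difference was 0.041, with an interval from -0.098 to 0.18. The other probe set gave 0.082, so both had higher means in anti-miR-137 cells, and neither had groups that stood apart.

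OPTN, an adaptor that binds ubiquitin and LC3, had group means 0.012 log2 units apart, while its means by replicate number spanned 0.26. Its main probe set (11736020_a_at) measured 9.09, 9.03 and 8.75 in anti-miR-137 replicates 1 to 3 and 8.89, 9.09 and 8.85 in control replicates 1 to 3. Both replicate 3 arrays were the lowest of their group. The treatment difference had an interval from -0.24 to 0.26, and its sign changed under 4 alternative settings. The other 2 probe sets gave -0.0086 and -0.067.

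SQSTM1, the p62 adaptor that is itself degraded by autophagy, had 5 probe sets that did not share a sign. The main one (11717290_s_at) ranged from 10.45 to 10.54 in anti-miR-137 arrays and from 10.45 to 10.61 in control arrays, a difference of -0.046 with an interval from -0.20 to 0.11. Of the 5, 3 had higher and 2 lower means in anti-miR-137 cells, between -0.046 and 0.099. The highest difference belonged to 11752843_x_at, which measured 8.32, 8.35 and 8.29 in anti-miR-137 replicates 1 to 3 and 8.22, 8.23 and 8.22 in control replicates 1 to 3. On this probe set the groups did not overlap, in the direction opposite to the main one, and its adjusted p was 1.00 in the limma fit over all 45278 probe sets.

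MAP1LC3B, the LC3 protein that is attached to lipid in the autophagosome membrane, measured 10.79, 10.77 and 10.95 in anti-miR-137 replicates 1 to 3 on its main probe set (11748422_a_at). The control arrays measured 10.75, 10.91 and 10.91. The groups overlapped, and the difference was -0.021 with an interval from -0.20 to 0.16. All 3 probe sets had lower means in anti-miR-137 cells, between -0.053 and -0.021. Another probe set shared by MAP1LC3B and the pseudogene MAP1LC3BP1 was left out by the rule; it ranged from 9.73 to 9.82 in anti-miR-137 arrays and from 9.76 to 9.88 in control arrays.

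GABARAPL1, a GABARAP relative to which the mitophagy receptors also bind, had the widest difference of the 8 genes in size and the least agreement between probe sets. The main probe set (11758023_x_at) measured 6.62, 6.57 and 6.48 in anti-miR-137 replicates 1 to 3 and 6.71, 6.98 and 6.58 in control replicates 1 to 3. The groups overlapped, and control replicate 2 stood above the rest. The means were 6.56 ± 0.069 and 6.76 ± 0.20 (SD, n = 3 each), a difference of -0.20 with a standard error of 0.10 and an interval from -0.44 to 0.048 (adjusted p = 1.00, limma). Without control replicate 2 the difference was -0.087.

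A second probe set of GABARAPL1 went the other way. On 11738986_a_at the anti-miR-137 arrays measured 6.56, 6.62 and 6.51 and the control arrays 6.44, 6.41 and 6.37, so that here the anti-miR-137 arrays were all above the control arrays. The difference was 0.16 with an interval from -0.0072 to 0.32 (adjusted p = 1.00, limma over all probe sets). The 2 further probe sets, which did not pass the filter, gave 0.014 and 0.14. So 3 of 4 probe sets had higher means in anti-miR-137 cells, and the brightest, which stands for the gene, was the exception. GABARAPL1 has a near-identical pseudogene copy, and probes marked x may read both; the probe sequences were not used here.

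**Figure D2:**
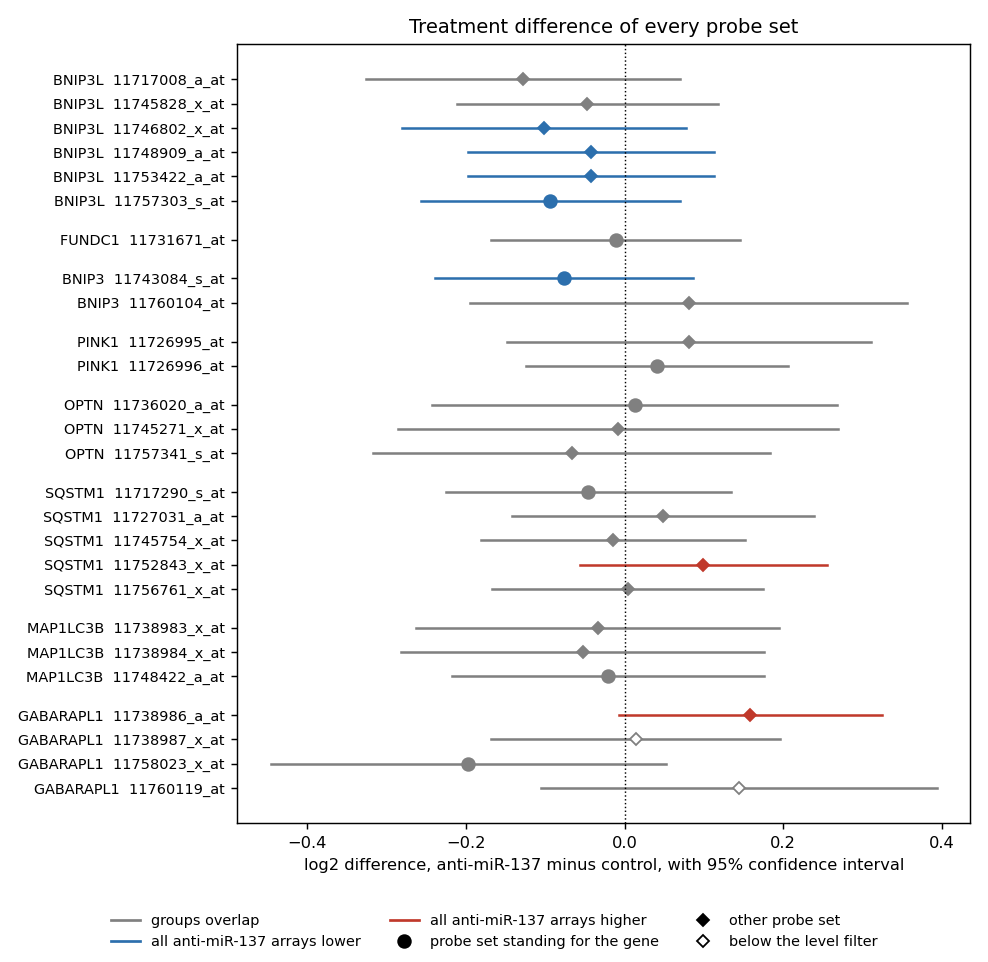
Log2 difference (horizontal axis, anti-miR-137 minus control) of all 26 probe sets with its 95% confidence interval from limma over all 45278 probe sets without a filter. Large circles stand for the gene; blue and red mark groups that do not overlap, lower or higher in anti-miR-137 cells, and open symbols lie below the level filter. All 26 intervals include 0; the 6 rows of BNIP3L lie left of 0, while those of SQSTM1 and GABARAPL1 lie on both sides.

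Over the 26 probe sets, 16 had lower and 10 higher means in anti-miR-137 cells, and 45.9% of all probe sets had lower means. None of the 26 passed limma's test over all probe sets, where 0% did, and 0 of 26 had an unadjusted p under 0.05, where 3.44% of all probe sets did. The groups did not overlap for 7 of the 26, or 6 of 25 distinct measurements, and for 8.01% of all probe sets. Of these 7, 4 belonged to BNIP3L and 1 each to BNIP3, SQSTM1 and GABARAPL1, with 5 lower and 2 higher. The 26 probe sets are not independent of each other, because several are annotated to the same gene.

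By replicate number, 3 genes had the lower value in the anti-miR-137 array each time. BNIP3L was lower by 0.061, 0.10 and 0.12 log2 units in numbers 1, 2 and 3 when the anti-miR-137 array was set beside the control array of that number. BNIP3 was lower by 0.060, 0.11 and 0.056, and the main probe set of GABARAPL1 by 0.092, 0.40 and 0.096. These were 3 of the 8 genes, and 13.2% of all genes had this order in all 3 numbers. The other 5 genes changed sign between the numbers. OPTN gave 0.19 in number 1 and -0.063 and -0.093 in numbers 2 and 3, and SQSTM1 gave 0.094, -0.071 and -0.16. The labels do not say that a number marks a shared culture or day.

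**Figure D3:**
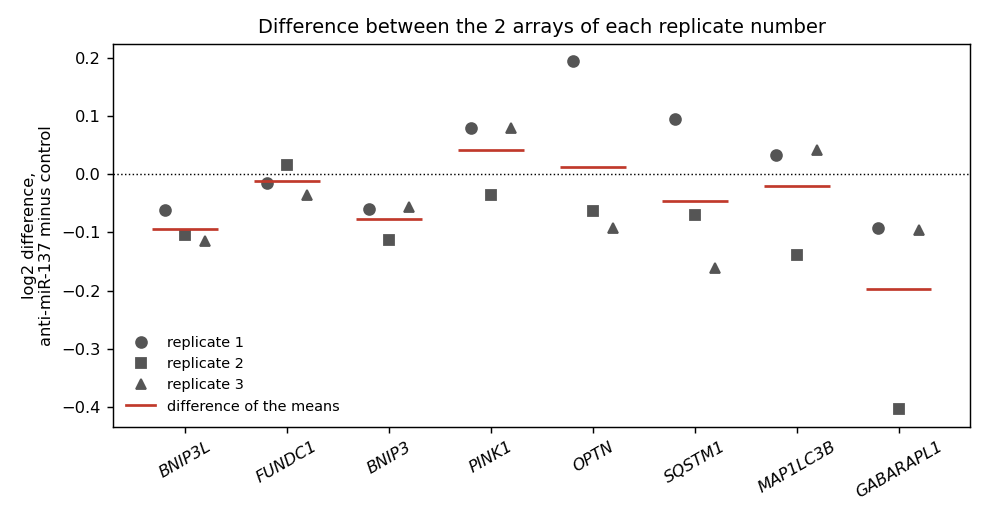
Log2 difference (vertical axis) between the anti-miR-137 and the control array of the same replicate number, by gene, with the difference of the group means as a red line. All 3 points lie below 0 for BNIP3L, BNIP3 and GABARAPL1; for the other 5 genes they lie on both sides of 0.

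The level of the 8 genes was also compared between replicate numbers, with treatment kept in the model. In limma's F-test of the number, 0 of 8 genes had an adjusted p under 0.05, where 2.54% of all genes did. At an unadjusted p under 0.05 there were 0 of 8, where 23.5% of all genes were counted. OPTN had the smallest p of the 8 (unadjusted p = 0.062, adjusted p = 0.23, limma), with means of 8.99, 9.06 and 8.80 in numbers 1, 2 and 3. GABARAPL1 had means of 6.67, 6.77 and 6.53 (adjusted p = 0.31), and MAP1LC3B had 10.77, 10.84 and 10.93 (adjusted p = 0.39). The means of BNIP3L differed between numbers by at most 0.070, those of BNIP3 by 0.069, those of PINK1 by 0.065, those of SQSTM1 by 0.060 and those of FUNDC1 by 0.044. The median of this range was 0.070 over the 8 genes and 0.15 over all genes. The 8 genes were also brighter, with a median level of 10.7 beside 8.58 over all genes. The ranges were not compared among genes of equal level. On single probe sets, 3 of 26 reached an unadjusted p under 0.05 for the number, where 14.3% of all did, and 0 of 26 passed after adjustment, where 0% of all did. They were the dim set of BNIP3 (unadjusted p = 0.021, adjusted p = 0.28, limma), 11745271_x_at of OPTN (unadjusted p = 0.047, adjusted p = 0.35) and 11738983_x_at of MAP1LC3B (unadjusted p = 0.048, adjusted p = 0.35).

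Other genes of mitophagy and autophagy were taken from 3 lists of 59 different genes, of which 55 were tested. None passed limma's test over all genes, where 0% did, and 1 of 55 had an unadjusted p under 0.05, beside 2.65% of all genes. Of the 55, 26 were higher by mean after anti-miR-137 and 29 lower, with a median log2 difference of -0.0096 beside 0.0033 over all genes. The groups did not overlap for 5 of the 55, 1 higher and 4 lower, where 7.36% of all genes did not overlap and 3.17% did so with lower values.

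Among 17 further mitophagy receptors and regulators, 8 had higher and 9 lower values, with a median of -0.0073. The 4 with the smallest unadjusted p were AMBRA1 (-0.12), a Beclin 1 binding protein that can act as a receptor itself, FKBP8 (0.18), an outer membrane receptor, the deubiquitinase USP15 (-0.10) and BCL2L13 (0.076), a receptor of the BCL2 family. The anti-miR-137 arrays were all below the control arrays for AMBRA1, on 8.03, 8.03 and 7.98 against 8.13, 8.07 and 8.21. Of its 3 probe sets, however, 2 had higher means. All 3 probe sets of FKBP8 had higher means, from 0.0084 to 0.19, and 6 of the 7 of USP15 had higher means, unlike the one that stands for the gene. For BCL2L13, 5 of 7 probe sets had higher means.

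Among 10 cargo adaptors and their kinases, 3 had higher and 7 lower values, with a median of -0.088. ULK1, a kinase that starts autophagosome formation and phosphorylates FUNDC1, was the 1 gene of the 3 lists with an unadjusted p under 0.05. It measured 7.17, 7.12 and 7.13 in anti-miR-137 replicates 1 to 3 and 7.37, 7.46 and 7.19 in control replicates 1 to 3, and the groups did not overlap. The difference was -0.20 with an interval from -0.38 to -0.0080 (unadjusted p = 0.043, adjusted p = 1.00, limma), on its only probe set. Its relative ULK2 had -0.11, with 9.22, 9.16 and 9.10 against 9.26, 9.28 and 9.26, and 4 of its 6 probe sets had lower means. AMBRA1, which stands in this list as well, and the adaptor CALCOCO2 (-0.097, lower on 4 of 5 probe sets) completed the 4. The groups did not overlap for 3 of these 10 genes (ULK1, ULK2 and AMBRA1), all lower, where 3.17% of all genes did not overlap with lower values.

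Among 29 genes of autophagosome formation, 15 had higher and 14 lower values, with a median of 6.0e-06. ATG16L1, which directs LC3 attachment to the membrane, had -0.19 with an interval from -0.39 to 0.011, and both of its probe sets had lower means. On the main one, all anti-miR-137 arrays were below the control arrays, though the closest of them differed by less than the spread within either group. ATG9A, a lipid scramblase of autophagosome growth, had 0.092, with all anti-miR-137 arrays above the control arrays, and 3 of its 5 probe sets had lower means. The LC3-processing protease ATG4C had -0.11 and the conjugating enzyme ATG7 had 0.081. None of these 4 passed (adjusted p = 1.00 each, limma).

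HIF target genes were listed because BNIP3 is one of them and BNIP3L is induced by hypoxia. Of 19 tested, 17 were lower by mean after anti-miR-137 and 2 higher, beside 48.1% of all genes lower, with a median of -0.083, and none passed limma's test over all genes. The 4 with the smallest p were PDK1 (-0.20, unadjusted p = 0.016, limma), P4HA1 (-0.17), PFKFB4 (-0.12) and HK2 (-0.12). PDK1 is a kinase that inhibits pyruvate dehydrogenase, and HK2 is a hexokinase. PFKFB4 and HK2 had other probe sets with higher means. Of the 19 genes, 11 were lower after anti-miR-137 in all 3 numbers, where 13.2% of all genes were. Also, 11 had an unadjusted p under 0.05 for the replicate number (limma F-test), where 23.5% of all genes did. Targets of the same factor can move together across arrays, so the 19 genes are not 19 independent signs. The shares of all genes are therefore no test of these counts, and a decrease of the list as a whole was not tested. The list was also chosen with earlier results of these data known.

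**Figure D4:**
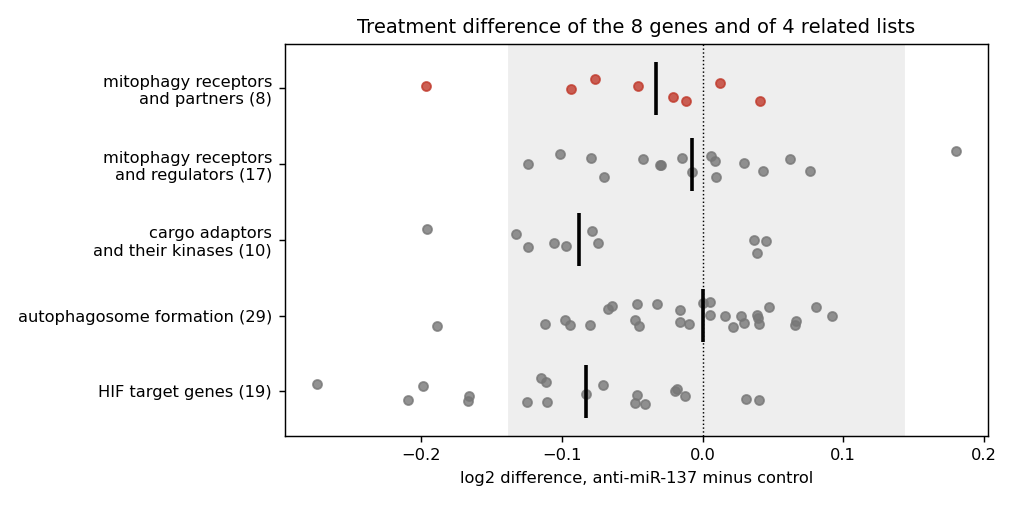
Log2 difference (horizontal axis, anti-miR-137 minus control) of the 8 genes (red) and of the tested genes of 4 related lists (grey), 1 point per gene, with the median as a black bar; the vertical position within a row is arbitrary. The shaded band runs from -0.14 to 0.14 and holds all genes but the outermost 5% on each side. Medians lie at -0.033 for the 8 genes, -0.0073, -0.088 and 6.0e-06 for the 3 mitophagy and autophagy lists and -0.083 for the HIF targets.

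Promoter sequence is shown for BNIP3 and FUNDC1, since the groups did not overlap for the first and overlapped for the second. RefSeq promoter windows (GRCh38.p14) were given for 6 of the 8 genes, FUNDC1, BNIP3, OPTN, SQSTM1, MAP1LC3B and GABARAPL1. The 250 bases before each start were searched on both strands for the core of the hypoxia response element, spelled ACGTG or GCGTG. Capitals mark the matches; where CACGTG stands, ACGTG is read on both strands and the matches overlap.
BNIP3, minus strand, chr10:131981924-131982173: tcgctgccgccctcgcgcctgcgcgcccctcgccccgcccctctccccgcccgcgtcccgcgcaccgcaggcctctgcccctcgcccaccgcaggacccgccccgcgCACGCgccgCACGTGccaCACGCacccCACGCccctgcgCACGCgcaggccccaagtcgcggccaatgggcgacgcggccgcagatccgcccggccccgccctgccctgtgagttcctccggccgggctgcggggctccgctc
FUNDC1, minus strand, chrX:44542860-44543109: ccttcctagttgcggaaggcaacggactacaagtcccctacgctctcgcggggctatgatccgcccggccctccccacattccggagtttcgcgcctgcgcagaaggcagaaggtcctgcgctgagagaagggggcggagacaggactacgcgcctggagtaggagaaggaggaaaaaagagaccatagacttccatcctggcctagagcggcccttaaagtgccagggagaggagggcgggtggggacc
BNIP3 had 6 matches, 2 of ACGTG and 4 of GCGTG, between 143 and 104 bases before the start, and FUNDC1 had 0. MAP1LC3B had 4 matches of GCGTG, and OPTN, SQSTM1 and GABARAPL1 had 0 in their windows. Of all 35116 promoter windows of this length, 43.2% held ACGTG or GCGTG and 18.5% held ACGTG. BNIP3 and FUNDC1 were picked for display by their values, BNIP3L had no window, and MAP1LC3B had matches though its groups overlapped. A match describes the letters only, and a link between matches and the treatment differences was not tested.

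The genes whose values followed BNIP3L and FUNDC1 most closely were sought among 6400 tested genes with an SD of at least 0.1 over the 6 arrays. For BNIP3L they were RAPGEFL1 (Pearson r = 0.983), MYO9A (0.981) and GRAMD1C (0.978), each over 6 arrays. RAPGEFL1 measured 7.43, 7.35 and 7.28 in anti-miR-137 replicates 1 to 3 and 7.55, 7.54 and 7.47 in control replicates 1 to 3. Its groups lay in the same order as those of BNIP3L. Its choice by the highest r favours that order, so the order is no separate finding. For FUNDC1 they were CEMIP2 (0.963), RRAS2 (0.962) and ZNF616 (0.955). Of the 6400 genes, 46 had an r over 0.9 with BNIP3L and 16 with FUNDC1. How many of the 6400 genes would reach such an r over 6 arrays without any relation was not tested. BNIP3L and FUNDC1 themselves had SDs of 0.063 and 0.023, below the limit set for the other genes. With 6 arrays that share 1 normalization, such values are a description.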

How the data were processed

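Per the labels' protocols, 100 ng of total RNA of each of 6 samples were amplified, labelled with biotin and hybridised to 1 array each. The authors deposited log2 values for each probe set, made with RMA in R 3.0.1 per the submitters' processing notes. From 49495 probe sets, 202 AFFX or ERCC controls were left out. The platform annotation gave 1 symbol to 45278, several to 1333 and none to 2682; 45208 of the 45278 were found in the RefSeq gene table, which changed 0 symbols.

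Treatments were compared in R 4.3.3 by limma 3.58.1, with treatment alone in the model, a two-sided test and Benjamini-Hochberg adjustment over all genes at 0.05, and replicate numbers with an F-test that kept the group in the model. The steps were tested on simulated data. Named genes were the 8 members, the 4 smallest p of each related list, and the 3 genes most correlated with BNIP3L and with FUNDC1. Members and lists were chosen with earlier results of these data known. Of the listed genes, TOMM7, MARCHF5, MAP1LC3B2, CA9 and some others were not analysed here. The number of arrays limits the precision.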

Additional observations from a re-analysis of the deposited data

How the results depend on the processing

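The counts of 0 genes, 0 members and 0 related genes past the adjusted threshold for the treatment were the same under every alternative run (no filter, the 60th percentile, averaged probe sets, no suffixed probe sets, quantile normalization, median centring, a variance trend, array weights, the RNA integrity number, the replicate block and each left-out array, 0 to 0). Unadjusted counts over all genes moved from 334 to 642 without the filter, 169 with the stricter one, 118 without suffixed probe sets, 1087 with array weights and, leaving out single arrays, 198 to 584. Of the members, GABARAPL1 reached an unadjusted p under 0.05 with array weights (0.018), with the replicate block (0.045) and without control replicate 3 (0.026). Genes past the threshold for the replicate number were 321, but 2 without the filter, 1097 with the stricter one, 105 without suffixed probe sets and 1796 with a variance trend; members stayed at 0 in all of these, with OPTN at an adjusted p of 0.099 under the trend. At an unadjusted p under 0.05 for the number, members went from 0 to 1 with the stricter filter or quantile normalization (OPTN), to 1 without suffixed probe sets (BNIP3), and to 2 with averaged probe sets (BNIP3, MAP1LC3B) or the trend (OPTN, MAP1LC3B). Only FUNDC1, BNIP3 and PINK1 had a probe set without a suffix that passed the filter.

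BNIP3L (-0.11 to -0.076), GABARAPL1 (-0.29 to -0.019) and PINK1 (0.0022 to 0.071) kept their sign under the alternatives in which they were tested. With each array left out they also kept it, at -0.11 to -0.066 for BNIP3L, -0.28 to -0.087 for GABARAPL1 and 0.014 to 0.075 for PINK1. Other filters, the variance trend and the replicate block reuse the same values of a gene, so its difference and sign could not change there. For GABARAPL1 the kept sign is that of its brightest probe set, while 3 of its 4 probe sets had higher means in anti-miR-137 cells. GABARAPL1 was not tested with the stricter filter or without suffixed probe sets, nor BNIP3L without suffixed probe sets. With averaged probe sets BNIP3 gave 0.0022, OPTN -0.021 and SQSTM1 0.018; without suffixed probe sets BNIP3 gave 0.081. FUNDC1 gave 0.0053 with quantile normalization and 0.0043 with array weights. OPTN gave -0.0037 with median centring, -0.020 with array weights and -0.023 with the RNA integrity number, where MAP1LC3B gave 0.024. With an array left out, FUNDC1 ranged from -0.029 to 0.00013, OPTN from -0.053 to 0.11 and MAP1LC3B from -0.078 to 0.011; the causes were not tested. Same-numbered arrays deviated together in numbers 1 and 3 (correlations of 0.55 and 0.65 over genes) but not clearly in 2 (0.074). They were not taken as pairs in the main model because the labels do not say that a number marks a shared culture or day. Differences between numbers, with 23.5% of genes at an unadjusted p under 0.05 (limma F-test), thus stayed in the error of the main test. With the replicate block 816 genes had an unadjusted p under 0.05 for the treatment (limma), beside 334 without it, and 0 passed.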

Other observations

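Among the genes of the related lists, 5 of 74 passed limma's F-test for the replicate number, where 2.54% of all genes did; they were singled out after their values were seen. FUNDC2, the paralogue of FUNDC1, measured 12.48, 12.23 and 12.02 in anti-miR-137 replicates 1, 2 and 3 and 12.57, 12.19 and 12.05 in control replicates 1, 2 and 3 (adjusted p = 0.044). WIPI1, which binds the lipid of forming autophagosomes, measured 8.60, 8.35 and 8.02 and then 8.55, 8.42 and 7.95 in the same order (adjusted p = 0.036). BCL2, the apoptosis inhibitor that also binds Beclin 1, was lowest in both replicate 2 arrays at 7.23 and 7.30 (adjusted p = 0.047). The HIF targets ADM (adjusted p = 0.028) and NDRG1 (adjusted p = 0.038) were the others. ADM measured 9.36, 8.05 and 8.54 in anti-miR-137 replicates 1, 2 and 3 and 9.41, 8.32 and 8.84 in control replicates 1, 2 and 3. Treatment differences of these 5 genes lay between -0.21 (ADM) and 0.016 (WIPI1), and none passed. With dim probe sets kept in, none of the 5 passed for the number (adjusted p from 0.087 to 0.12), with averaged probe sets BCL2 did not (0.27), and without suffixed probe sets only BCL2 was tested and did not pass (0.056).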
